A study of Mus musculus with 25 samples.

Results

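TAD boundaries that mouse embryonic fibroblasts (MEFs) and embryonic stem (ES) cells have in common were selected on the 2 deposited lists of topologically associating domains (TADs), 1 per cell type. A member was any autosomal TAD start or end in the MEF list that had an ES start or end within 40 kb on the same chromosome. This rule gave 1742 shared boundaries out of 3768 autosomal boundary positions in either list. They made up 63.8% of the 2732 MEF positions (95% Wilson interval 61.9 to 65.5) and 62.7% of the 2778 ES positions. For scale, 14.1% of all autosomal positions on the 40 kb grid lay within 40 kb of an ES boundary.

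A TAD is a stretch of chromosome whose DNA contacts itself more often than its neighbours, and a boundary is the point between adjacent stretches. Cohesin extrudes loops of DNA and is halted by the zinc finger protein CTCF, which binds an asymmetric motif; boundaries are known for CTCF sites, for active promoters, housekeeping genes and transfer RNA genes, and for being largely kept between cell types. H3K27ac, an acetylated lysine of histone H3, is found at promoters and enhancers in use, and KLF4 is a zinc finger transcription factor of pluripotent cells and a member of the reprogramming cassette OKSM.

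Contacts were measured by Hi-C, which ligates DNA ends that are close in the nucleus, and by HiChIP, which adds an antibody step, here against H3K27ac or KLF4. The fibroblasts came from E13.5 embryos, each with single copies of an Oct4-GFP reporter, the doxycycline-inducible OKSM cassette and the rtTA3 transactivator, and were used at passage 3 without induction (MEF: 2 H3K27ac and 2 Hi-C libraries). The same cells under doxycycline and ascorbic acid gave the day 3 group (3 KLF4 libraries, whole culture) and the day 6 group (4 KLF4 libraries, cells sorted for SSEA1, so its cells are a selected fraction). The ES cells were the V6.5 line in 2i medium (2 H3K27ac, 4 KLF4 and 2 Hi-C libraries). V6.5 cells labelled TKO, also in 2i, were taken without doxycycline (0 h) and after 24 h of it, with 3 H3K27ac libraries each. KLF4 has no uninduced fibroblast library, so day 3 was its earliest point, and MEF and ES cells differ in line, medium and culture as well as in cell type.

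Contact totals ran from 48.7 to 181 M per HiChIP library, with 75.0 to 105 M in MEF, 166 to 168 M in ES and 80.5 to 110 M in TKO 0 h H3K27ac. The lists hold only interactions that passed the authors' filters, and median counts were 11 to 47 per listed interaction and library, so an interaction that is not listed may still exist below those filters. H3K27ac was checked against the labels at known genes. Each of the 21 annotated pluripotency genes had more H3K27ac interactions anchored in its bin in ES than in MEF (226 against 4 in sum), and 7 of 8 annotated fibroblast genes had more in MEF (41 against 8), the exception being Fn1. These gene bins were annotated by the authors in the TKO lists only, so a gene without an anchor in TKO cells carries no annotation. TKO cells are V6.5 in 2i like the ES group, and 21 of 24 pluripotency genes but 8 of 24 fibroblast genes were annotated. The higher ES numbers at pluripotency genes are thus partly set by that choice and are weak support for the labels.

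Sequence was used here for promoters only. The consensus of CTCF was searched on both strands in RefSeq promoters of 300 bases (250 before to 50 after the start, GRCm38.p6, the assembly called mm10). It matched 21 of 2667 promoters within 40 kb of a shared boundary, or 0.787% (95% Wilson interval 0.516 to 1.20), against 109 of 31396 on all autosomes held in the table, or 0.347% (0.288 to 0.419). The 21 promoters came down to 18 distinct windows. In 12 of them the motif, read 5′ to 3′ in the direction of the consensus, pointed away from the listed boundary position, and in 6 toward it. Positions are listed on a 40 kb grid, so the side of the boundary itself was not resolved. For comparison, the KLF motif GGGTGTGGC matched 1.39% of these promoters and 1.34% of all. Promoters near shared boundaries were also richer in CpG dinucleotides, with a median of 4.01% of positions against 2.34% among all promoters, so base composition moved with the CTCF count and its part in that count was not tested. Promoters near the boundaries found in MEF only had a CpG median of 5.35% and a CTCF match in 0.418% (0.203 to 0.860). Near those found in ES only the values were 3.01% and 0.674% (0.355 to 1.28), so the intervals of all 3 classes overlap and the CTCF share is not particular to shared boundaries.

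The windows below show how near such a match can lie to the listed position of a shared boundary. Given the 40 kb grid, the distances and sides are to that position, and the boundary itself is not placed so finely. They are the 5 whose centre was closest to the boundary position, then the pair with most H3K27ac crossing interactions in ES, chosen after the values were seen. Capitals mark the CTCF match, on either strand, and each window is written 5′ to 3′ on the strand of the gene.
Snhg7, chr2:26640301-26640360, minus strand, 0.3 kb after the boundary: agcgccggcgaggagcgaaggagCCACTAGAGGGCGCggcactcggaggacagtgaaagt
Gm52049, chr13:51639146-51639205, plus strand, 0.8 kb before it: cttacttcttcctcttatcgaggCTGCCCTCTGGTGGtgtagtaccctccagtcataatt
Gm30107, chr8:114081198-114081257, minus strand, 1.2 kb after it: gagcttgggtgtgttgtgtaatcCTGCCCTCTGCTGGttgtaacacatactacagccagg
Cryz, chr3:154596609-154596668, plus strand, 3.4 kb before it: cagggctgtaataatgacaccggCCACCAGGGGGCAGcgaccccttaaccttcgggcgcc
Gm17197, chr19:56356593-56356652, plus strand, 3.4 kb before it: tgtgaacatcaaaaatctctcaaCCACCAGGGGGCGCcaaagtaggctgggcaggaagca
Nudt17, chr3:96708541-96708600, minus strand, 11.4 kb before it: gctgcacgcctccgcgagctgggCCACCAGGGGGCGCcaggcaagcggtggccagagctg
Cul5, chr9:53667549-53667608, minus strand, 12.4 kb before it: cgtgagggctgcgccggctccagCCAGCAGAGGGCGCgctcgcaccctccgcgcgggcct

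Crossing at the boundaries beside these windows varied. Next to Snhg7, a host transcript of small nucleolar RNAs, no H3K27ac interaction of the MEF list and 3 of the ES list crossed. There 15 of the ES list ended within 40 kb, and over all shared boundaries 17.3% of such ES interactions crossed. Next to Cul5, which encodes a cullin of ubiquitin ligases, 0 MEF and 4 ES interactions crossed, and next to Nudt17 the numbers were 2 and 4, with 8 in TKO 0 h. The Nudt17 boundary also had 24 crossing Hi-C interactions in ES and 4 in MEF, where the most at any shared boundary was 28 in ES. Over all shared boundaries 80.6% had no H3K27ac crossing in ES, so those with 3 or 4 lie above the middle of the list. At the Cryz boundary, whose gene encodes a quinone oxidoreductase, neither list had a crossing H3K27ac interaction.

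Most shared boundaries were at the same position in both cell types. Of the 1742, 1398 (80.3%) had an ES boundary at 0 kb, 6 at 20 kb and 338 at 40 kb, the limit of the rule. Among the last, the ES position lay after the MEF position at 161 and before it at 177. A further 51 MEF boundaries had their nearest ES boundary at 80 kb and so fell just outside, and 939 had none within 80 kb. The MEF list held 2713 TADs with a median length of 560 kb, the ES list 2759 autosomal TADs with a median of 600 kb, and 1102 MEF TADs (40.6%) had both edges shared. The shared percentage ran from 54.8% of MEF boundaries on chromosome 17 to 79.7% on chromosome 19.

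Genes were dense at the shared boundaries. RefSeq starts within 40 kb numbered 0.383 per 20 kb and boundary, against 0.280 at 200 to 400 kb, a ratio of 1.36. Of 12334 genes that the authors annotated in the TKO lists, 1267 lay in a bin within 40 kb, or 10.3% (95% Wilson interval 9.75 to 10.8), whereas 7.86% of all TKO anchor bins did (7.64 to 8.09). Near the boundaries found in MEF only these shares were 7.49% of genes and 5.61% of anchor bins. Near those found in ES only they were 4.27% and 3.52%. The excess of genes was thus not particular to shared boundaries. Such a gene bin was found at 659 of the shared boundaries (37.8%). H3K27ac anchors did not follow the gene starts in fibroblasts: MEF anchors were sparser within 40 kb than at 200 to 400 kb, with a ratio of 0.754, while ES anchors had a ratio of 1.06. KLF4 anchors had ratios of 0.734 at day 3 and 0.949 in ES.

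**Figure D1:**
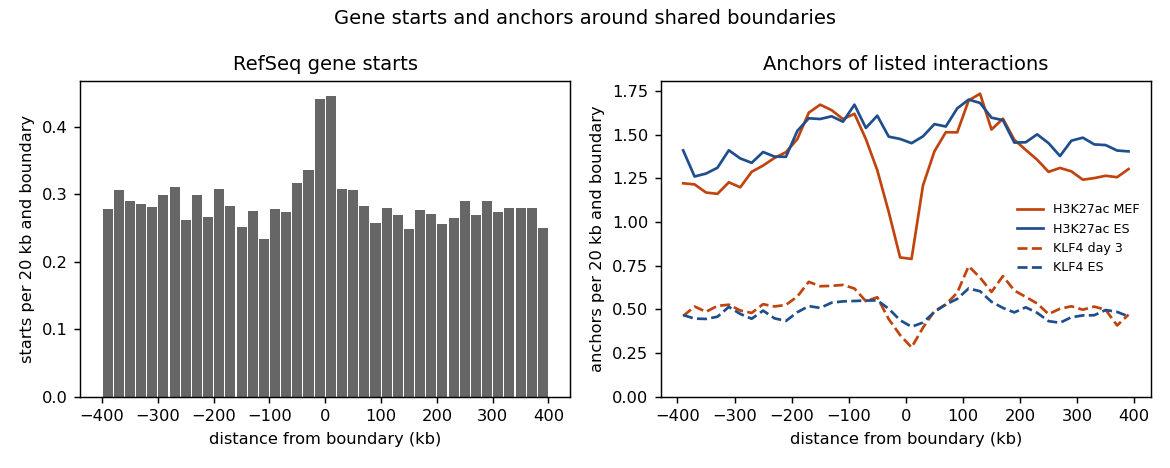
The x axes give the distance from the 1742 shared boundaries in kb, and the y axes count RefSeq gene starts (left, bars) or anchors of listed interactions (right, lines) per 20 kb and boundary. Gene starts peak at the boundary, while the MEF H3K27ac and day 3 KLF4 anchors dip there and the ES H3K27ac line stays nearly level.

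Gene families took unequal shares of the boundaries, given here against the 10.3% of all annotated genes. Cytoplasmic ribosomal protein genes, which make the protein part of the ribosome, had 16 of 87 members within 40 kb (18.4%, 11.6 to 27.8), among them Rpl14, Rpl17, Rpl18 and Rpl36al. Mitochondrial ribosome genes had 10 of 62 (16.1%, 9.00 to 27.2), such as Mrpl13, Mrpl15, Mrpl30 and Mrpl32. Of 32 aminoacyl-tRNA synthetase genes, whose enzymes load transfer RNAs with amino acids, 5 lay there (Hars, Hars2, Kars, Nars and Tars). Zinc finger genes of the Zfp series, which often sit in clusters, had 7 of 222 (3.15%, 1.54 to 6.36), including Zfp169, Zfp239, Zfp367 and Zfp407. None of the 3 annotated histone genes lay there. The intervals of the ribosomal and synthetase lists are wide, members of a list often share a boundary, and the lists were drawn up with earlier results of these data known.

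Hox genes, which set positional identity in the embryo, had 11 of 16 annotated members at shared boundaries, but 8 of the 11 belong to a single boundary inside the Hoxc cluster, chr15:102960000. That boundary had 9 annotated genes within 40 kb, with the long noncoding RNA Hotair beside Hoxc5 to Hoxc13. H3K27ac interactions that crossed it numbered 0 in MEF, 1 in ES, 4 in TKO 0 h and 2 in TKO 24 h, against 4, 11, 22 and 18 that ended within 40 kb. Over all shared boundaries, 10.3% of the interactions ending near crossed in MEF, 17.3% in ES and TKO 0 h and 15.6% in TKO 24 h. The TKO 0 h numbers at this boundary were thus near the general share, and the other crossing numbers are too small to set it apart. Hi-C listed 0 crossing interactions in MEF and 8 in ES. Hoxb9 and the pair Hoxd9 and Hoxd10 lay at the other two Hox boundaries.

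Among 13 annotated genes that make or regulate boundaries, 4 were at shared boundaries themselves (30.8%, 12.7 to 57.6). The share of all annotated genes was 10.3%, and the list is short. Smc3, a core cohesin subunit, lay 5 kb from chr19:53600000, which 8 H3K27ac interactions crossed in MEF, 20 in ES and 16 in TKO 0 h. Its own bin anchored 6 interactions in MEF and 20 in ES, of which 4 and 8 crossed. Esco2, which acetylates cohesin, had a boundary crossed by 0 interactions in MEF and 2 in ES, Pds5a, a cohesin cofactor, by 1 and 4, and Top2b, a topoisomerase found at boundaries, by 0 and 0. Of 391 transfer RNA genes in RefSeq 35 lay within 40 kb of a shared boundary (8.95%, 6.51 to 12.2), and 21 of these belonged to the cluster at chr1:171080000. Of protein-coding genes in RefSeq 8.44% did, so transfer RNA genes were near the general share. Near the boundaries found in MEF only and in ES only the transfer RNA share was 7.16% each.

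The lists of pluripotency and fibroblast genes used here each had a single member at a shared boundary. Dppa3 and Gdf3, described below at another shared boundary, were not on the pluripotency list. Of 21 annotated genes on the pluripotency list Mycn, a growth-promoting transcription factor, lay within 40 kb (4.76%, 0.846 to 22.7). Of 8 annotated genes on the fibroblast list it was Zeb1, a repressor of epithelial genes (12.5%, 2.24 to 47.1). Both intervals include the 10.3% of all annotated genes. The Mycn bin (chr12:12940001-12950000) anchored no H3K27ac interaction in MEF, 23 in ES, 16 in TKO 0 h and 9 in TKO 24 h. In ES 5 of the 23 crossed the boundary at chr12:12960000, and 13 ES interactions in all crossed it against 0 in MEF. The ES boundary here lay 40 kb further on, at the edge of the rule. The Zeb1 bin anchored a single interaction in MEF, which did not cross, and none in ES.

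Few listed interactions crossed a shared boundary, meaning that the anchor bins lay on opposite sides of its MEF position. In H3K27ac, 525 of 59270 autosomal interactions crossed in MEF, or 0.886% (95% Wilson interval 0.813 to 0.964), and 1349 of 72678 in ES, or 1.86% (1.76 to 1.96). The TKO lists gave 1.85% at 0 h and 1.55% at 24 h. In KLF4 the percentages were 0.955% (0.837 to 1.09) at day 3, 0.879% (0.632 to 1.22) at day 6 and 1.18% (1.05 to 1.32) in ES. In Hi-C, from which the boundaries were chosen, they were 0.626% in MEF and 1.24% in ES and are given as a description. Intervals cover counting error only and treat listed interactions as independent, although those that cross cluster at few boundaries, as described below. They may thus be too narrow, and they measure no spread between libraries.

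Interactions that ended within 40 kb of a shared boundary were more common, and for H3K27ac crossing was again rarer among them in MEF than in ES. They made up 8.55% of the MEF and 10.3% of the ES H3K27ac list, 8.21% of the day 3, 7.88% of the day 6 and 8.81% of the ES KLF4 list. Counted per distinct anchor bin, 6.32% of MEF and 7.85% of ES H3K27ac anchors and 6.20% of day 3 and 7.05% of ES KLF4 anchors lay in these windows, which take up 5.88% of all autosomal 10 kb bins. Of those ending near, 10.3% crossed in MEF H3K27ac (9.52 to 11.2) and 17.3% in ES (16.5 to 18.2). For KLF4 11.6% crossed at day 3 (10.3 to 13.1), 11.1% at day 6 (8.12 to 15.1) and 13.3% in ES (11.9 to 14.8), with intervals that overlap. Nearly all crossing interactions had an anchor near the boundary, 523 of 525 in MEF H3K27ac and 1292 of 1349 in ES. They were short, with median spans of 30 kb in MEF and 40 kb in ES H3K27ac, 30 kb at day 3 and 20 kb in ES KLF4.

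To set crossing against the surroundings, the counts of listed interactions that crossed the boundary were divided, per library, by the mean at 12 positions 200 to 400 kb away, and are given as log2 crossing ratios, where 0 is the level of the surroundings. In H3K27ac both MEF libraries were at -2.05, a mean ratio of 0.242 ± 0.001 (SD, n = 2). The ES libraries were both at -0.82, a mean ratio of 0.565 ± 0.001 (SD, n = 2). The TKO 0 h libraries were at -0.82, -0.81 and -0.81, and the TKO 24 h group averaged -0.89. The fibroblast libraries were thus the lowest and no ES or TKO library came near them. The difference of ES minus MEF was 1.23 on the log2 scale, with p = 0.333 in a two-sided exact permutation test, the smallest p that 2 libraries against 2 allow. Contacts in listed interactions, which depend on the lists, numbered 1218739 to 1878462 per library in MEF and 4097574 to 4242037 in ES. They were 2988706 to 3919383 in TKO 0 h and 2122808 to 3286150 in TKO 24 h. Contact totals overlapped between MEF (75.0 to 105 M), TKO 0 h (80.5 to 110 M) and TKO 24 h (68.3 to 102 M), and were higher in ES (166 to 168 M). The part of depth in the difference was not tested.

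For KLF4 the group means of the crossing ratio were lowest at day 3 and highest in ES. The day 3 libraries were at -1.70, -1.70 and -1.66, the day 6 libraries at -1.17, -1.07, -0.94 and -1.16, and the ES pairs of joined libraries at -0.98 and -0.92. Day 3 did not overlap with either of the other groups, whereas the day 6 and ES values overlapped. In two-sided exact permutation tests ES minus day 3 was 0.74 on the log2 scale (p = 0.2, the smallest possible, n = 3 and 2), day 6 minus day 3 was 0.61 (p = 0.0571, the smallest possible) and ES minus day 6 was 0.14 (p = 0.267). With Benjamini-Hochberg adjustment over these 3 exact permutation tests and the H3K27ac test, p was 0.229 for day 6 minus day 3 and 0.333 for each of the others, so none passed 0.05. The day 6 ratios rest on only 35 interactions in its list of 3984, and its libraries differed by no more than counting noise.

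**Figure D2:**
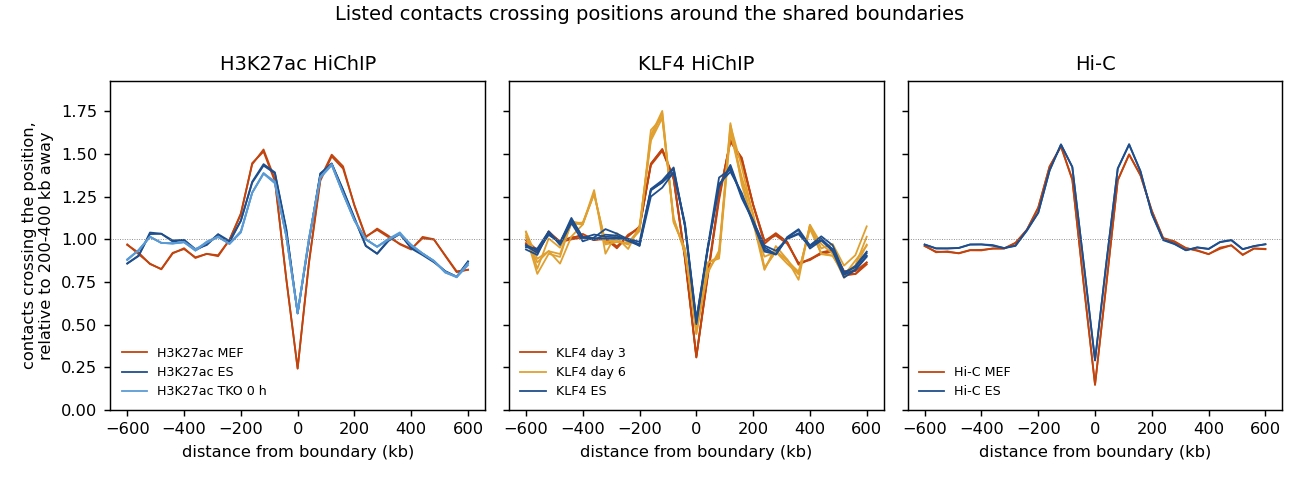
The y axis gives the listed contacts that cross a position, relative to the mean of positions 200 to 400 kb away, and the x axis the distance of that position from the shared boundaries in kb, with 1 line per library. Every list drops at the boundary, to a mean of 0.242 in MEF H3K27ac, 0.310 in day 3 KLF4 and 0.147 in MEF Hi-C, against 0.565, 0.517 and 0.290 in the ES lists.

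The drop was narrow. At 40 kb from the boundary MEF H3K27ac crossing was back at 0.768 and 0.864 of the surroundings before and after the boundary, and in ES at 1.06 and 0.991. At 120 kb it exceeded the surroundings, at 1.52 and 1.49 in MEF and 1.44 on both sides in ES. Day 3 KLF4 followed the same course, with 0.890 and 0.786 at 40 kb and 1.52 and 1.58 at 120 kb. Hi-C had the deepest drop, to log2 ratios of -2.77 in MEF and -1.79 in ES, which follows from the choice of the boundaries and supports nothing further.

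The 344 boundaries whose ES position was 20 or 40 kb away had a larger difference between the cell types than those at the same position. At their MEF position the H3K27ac log2 ratios were -1.91 and -1.95 for MEF but 0.35 and 0.34 for ES, and the TKO 0 h libraries lay at 0.26 to 0.29. The ES and TKO libraries thus had no drop there. At the 1398 boundaries with the same position in both cell types the values were -2.07 in both MEF libraries and -1.22 and -1.23 in ES, so the cell types differed by 0.85 on the log2 scale, against 2.28 at the displaced positions. Both differences had the smallest p of a two-sided exact permutation test, 0.333, with 2 libraries against 2. The reference to MEF positions is part of the rule, and it sets the ES lists off their own boundary at the displaced ones.

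Measured at the ES position instead, the displaced boundaries had a log2 H3K27ac ratio of -1.40 in ES, -1.53 in TKO 0 h and -1.97 in MEF. The MEF drop was therefore of like size at both positions, whereas the ES drop was found at its own. Over all 1742 shared boundaries, ES lists taken at ES positions and MEF lists at MEF positions differed by 0.80 on the log2 scale, in place of 1.23. KLF4 at day 3 was at -1.29 at the MEF position and at -3.13 at the ES position of the displaced boundaries, from 46 and 15 listed interactions. At day 6 the values were -0.02 and -2.62, from 10 and 3 interactions, and in ES -0.03 and -1.59, from 87 and 31.

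At the edge of the rule the ES H3K27ac list showed no drop. The 338 boundaries just inside, with the ES position at 40 kb, had H3K27ac log2 ratios of -1.92 in MEF and 0.41 in ES, and the 51 just outside, at 80 kb, had -2.34 and 1.50. The ES Hi-C list did drop at both, to -0.94 and -1.07, and ES KLF4 was at 0.01 and 0.29. Boundaries of a single cell type gave a further reference. The 990 MEF boundaries without an ES partner were at -1.69 in MEF and 0.06 in ES H3K27ac, and the 1036 ES boundaries without a MEF partner at -1.21 in MEF and -1.46 in ES. In H3K27ac, boundaries found in ES only thus also had a drop in the fibroblast libraries, whereas those found in MEF only had none in ES. At the latter, ES KLF4 was at -0.33 and ES Hi-C at -1.14, both below the surroundings.

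**Figure D3:**
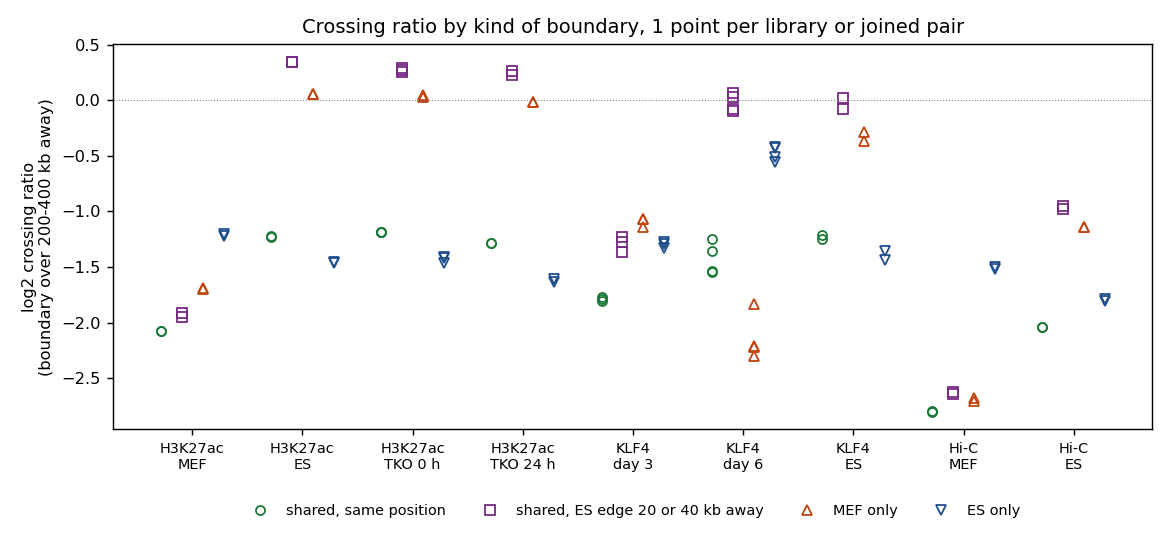
The y axis is the log2 crossing ratio and the x axis the group, with 1 point per library or pair of joined libraries and 1 symbol per class of boundary. MEF H3K27ac is low at both kinds of shared boundary (-2.07 and -1.93 on average), while ES H3K27ac is at -1.22 where positions are the same and at 0.35 where the ES edge is displaced.

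Crossing was concentrated at few boundaries. No H3K27ac interaction crossed at 1502 of the 1742 boundaries (86.2%) in MEF, at 1404 (80.6%) in ES and at 1280 (73.5%) in either list. The 88 most crossed boundaries, 5% of all, held 67.1% of the crossings in MEF and 64.4% in ES. More interactions crossed in ES at 298 boundaries and fewer at 142, and the numbers were equal at 1302. No interaction of any of the 9 lists crossed at 651 boundaries (37.4%). Chromosome 19 weighed heavily in these numbers, with 55 of the 1742 boundaries (3.16%) but 20.6% of the crossing interactions in MEF and 16.5% in ES and 8.44% and 7.51% of all listed interactions. The authors' CPM, on which the lists were filtered, is scaled to the contacts of the same chromosome, and the part of that scale in these shares was not tested. Without chromosome 19 the crossing ratio, which uses raw counts, differed by 1.30 on the log2 scale between ES and MEF.

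The boundary with most crossing H3K27ac interactions in ES and most crossing KLF4 interactions at day 3 and day 6 was chr19:8720000, inside Slc3a2, which encodes a subunit of amino acid transporters. Nxf1 (messenger RNA export), Stx5a (a Golgi syntaxin), Wdr74 (ribosome assembly) and Snhg1, a host of small nucleolar RNAs, lay within 40 kb. H3K27ac interactions that crossed it numbered 8 in MEF, 35 in ES, 33 in TKO 0 h and 27 in TKO 24 h. Their summed CPM, the authors' counts scaled to the contact total of the chromosome, was 65.1 and 67.5 in MEF, against 304 and 309 in ES. KLF4 crossed it in 11 interactions at day 3, 4 at day 6 and 4 in ES, with summed CPM of 80.3, 75.2 and 66.5 at day 3 and 31.6, 32.8, 31.4 and 35.8 in ES. The H3K27ac sums were thus higher in ES and the KLF4 sums at day 3. The boundary was chosen for its numbers of crossing interactions in these groups, and an interaction not listed in a group adds nothing there. The separation of the libraries is thus largely set by that choice and is no further support. Hi-C listed no interaction across it in MEF or ES. At chr19:7040000, inside Stip1 (a co-chaperone), with Fermt3 and Macrod1 beside it, the H3K27ac numbers were 7 in MEF, 30 in ES and 20 in TKO 0 h, and no KLF4 interaction crossed at day 3.

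Some boundaries were crossed in ES alone. At chr6:122600000, inside Apobec1, an RNA-editing enzyme gene, with Dppa3 (a maternal factor of early embryos) and Gdf3 (a ligand of the TGF-beta family) within 40 kb, no H3K27ac interaction crossed in MEF, 21 in ES, 24 in TKO 0 h and 16 in TKO 24 h. The summed CPM was 116 and 124 in the ES libraries and 143, 161 and 154 in those of TKO 0 h. KLF4 crossed in 0 interactions at day 3 and at day 6, and in 3 in ES. Hi-C listed 0 crossing interactions in MEF and 15 in ES. The ES boundary lay 40 kb after it, so these ES interactions crossed the MEF position and need not cross the ES one.

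Other boundaries crossed mainly in ES were likewise displaced, among them the next 3. At chr4:137640000, inside Usp48 (a deubiquitinase) and beside Rap1gap, 3 interactions crossed in MEF and 20 in ES, with summed CPM of 13.0 and 15.8 against 120 and 128, and 17 crossed in TKO 0 h. At chr18:34040000, near Epb41l4a, 0 and 21 crossed, and KLF4 had 5 at day 3 and 4 in ES. The ES position lay 40 kb after both. At chr16:16880000, inside the topoisomerase gene Top3b and 40 kb after the ES position, 1 crossed in MEF, 15 in ES and 28 in TKO 0 h, and KLF4 had 0 at day 3 and 7 in ES. Of the 24 named boundaries 8 were on chromosome 19.

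Boundaries crossed mainly in MEF had few genes annotated by the authors, so the genes here are named from RefSeq. These boundaries were likewise chosen for their H3K27ac crossing numbers, so the separation of the libraries is largely set by that choice. At chr19:22920000, inside Trpm3 (a cation channel), 15 H3K27ac interactions crossed in MEF, 2 in ES and 7 in TKO 0 h, with summed CPM of 131 and 127 in MEF and 7.06 and 6.70 in ES. At chr4:89120000, near Mtap (methylthioadenosine phosphorylase), the numbers were 11 in MEF and 0 in the ES and both TKO lists, and Hi-C listed 10 in MEF and 1 in ES. At chr19:41280000, inside Pik3ap1 and beside Tm9sf3, 13 crossed in MEF and 3 in ES. At chr13:45960000, inside Atxn1, and chr14:63000000, inside the defensin gene Defb47, 8 crossed in MEF and 0 in ES, and at chr9:67000000, between Lactb and the tropomyosin gene Tpm1, 8 and 1. Only chr19:21800000, inside Cemip2, had a more even pair, 12 and 7. All 7 had the same position in both cell types except the last, whose ES position lay 40 kb before it.

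KLF4 crossed most often at day 3, after chr19:8720000, at chr19:57360000 beside Fam160b1, with 9 interactions at day 3, 1 at day 6 and 1 in ES, and at chr17:83280000, with 8, 0 and 6. The summed CPM at chr19:57360000 was 54.6, 55.3 and 50.2 at day 3 and 7.67, 13.7, 11.3 and 11.6 in ES, a boundary likewise chosen for its day 3 number. H3K27ac there had 4 interactions in MEF and 17 in ES. In ES the most crossed were chr16:16880000, chr19:38400000 inside Slc35g1 and chr19:46320000 inside Psd and beside Nfkb2 (a subunit of NF-kappa-B), with 7 each against 0, 2 and 3 at day 3. The ES position lay 40 kb after chr19:38400000, which H3K27ac crossed in 0 interactions in MEF, 4 in ES and 12 in TKO 0 h. At day 6 no boundary other than chr19:8720000 had more than 2, as at chr18:35560000 beside Matr3 and Paip2.

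**Figure D4:**
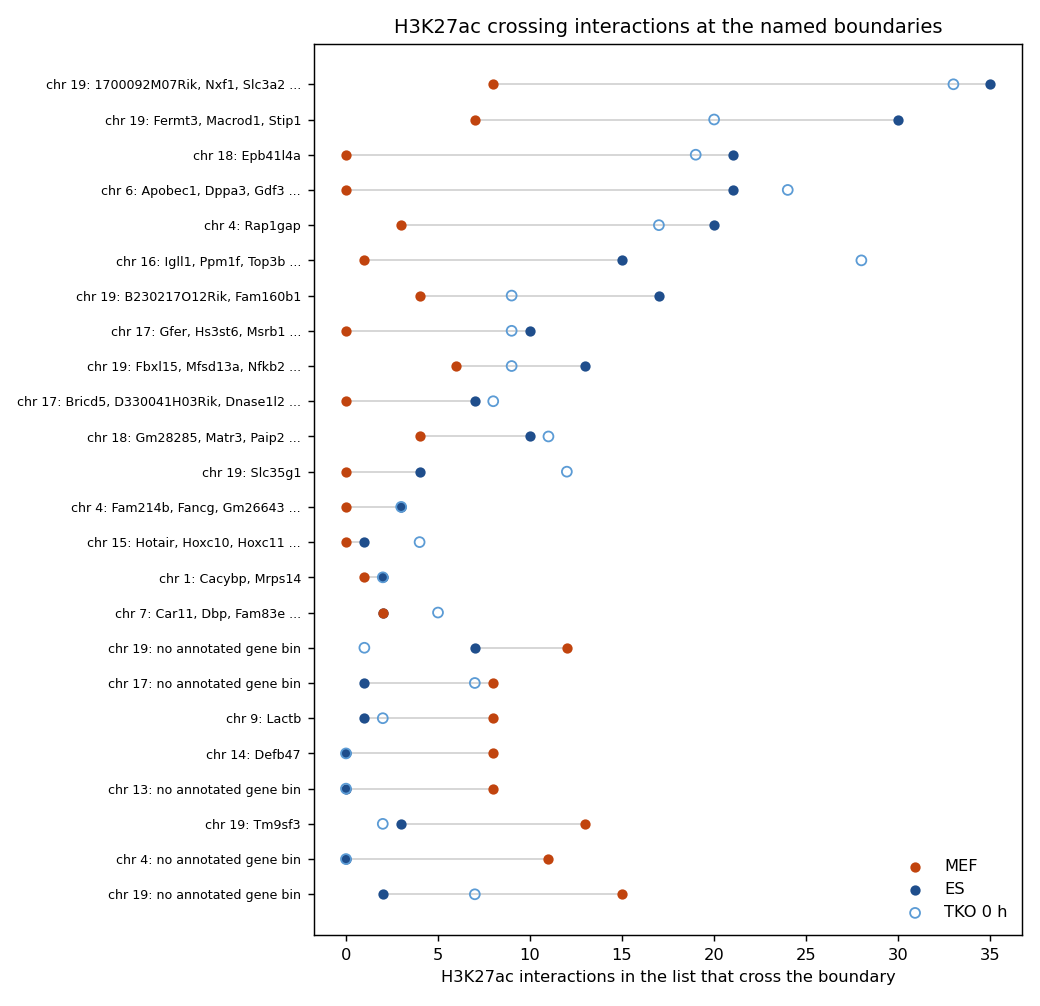
Each row is a named boundary, given by its chromosome and up to 3 annotated genes, and the x axis counts H3K27ac interactions that cross it in MEF, ES and TKO 0 h, joined by a grey line between MEF and ES. The TKO 0 h circles lie nearer to ES than to MEF in most rows, and the rows with more crossing in MEF mostly have no annotated gene.

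The boundaries with the most annotated genes, apart from the Hoxc one, had 0 to 2 crossing H3K27ac interactions in MEF, where 86.2% of all shared boundaries had none. At chr17:24720000, inside the ribosomal protein gene Rps2, 11 genes lay within 40 kb, among them Rpl3l, Ndufb10 (a subunit of respiratory complex I) and Gfer, and 0 H3K27ac interactions crossed in MEF and 10 in ES, of 8 and 43 that ended there. At chr17:24440000, between Rnps1, E4f1 and Mlst8 among others, 0 and 7 crossed. At chr4:43040000, with Vcp (a segregase of damaged proteins) and Fancg (DNA repair), 0 and 3 crossed, and at chr7:45720000, inside Rpl18, 2 and 2. KLF4 crossed these 4 boundaries in 0 interactions at day 3 and at most 3 in ES. The 16 ribosomal protein genes lay at 14 shared boundaries, of which 4 were crossed by H3K27ac in MEF and 10 in ES, against 13.8% and 19.4% of all shared boundaries. The highest number was at the Rps25 boundary on chromosome 9, with 3 in MEF and 15 in ES. Genes were annotated from the TKO H3K27ac lists, of V6.5 cells in 2i like the ES group. All 14 therefore had an anchor there, whereas 37.8% of all shared boundaries had an annotated gene bin. The comparison with all shared boundaries was thus uneven by choice, above all for ES.

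Strength was tested where an interaction was listed in both groups, with edgeR's quasi-likelihood test over all such interactions and Benjamini-Hochberg adjustment, called at an adjusted p under 0.05. Of 178 H3K27ac interactions that crossed a shared boundary in both lists, 44 were higher in ES and 11 lower. Among all 17901 tested, 17.6% were called higher and 14.4% lower, or 32% in all. The crossing interactions were thus called about as often as the rest, 30.9%, and with more of the calls in the direction of ES. Their median log2 fold change was 0.08, and that of all tested was -0.04. Of 1505 that ended within 40 kb of a shared boundary, 257 were higher and 176 lower, with a median of 0.00. These splits move with the scaling. With contact totals in place of TMM factors the median over all interactions moved by 0.25, and 4831 of all tested were higher and 1426 lower. The split was then 60 and 4 for the crossing interactions and 401 and 85 for those ending near. DESeq2 called 14 crossing interactions higher and 1 lower, against 1533 higher and 863 lower among all 17901 tested. Without MEF library 2 the median log2 fold change over all tested moved by 0.03.

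**Figure D5:**
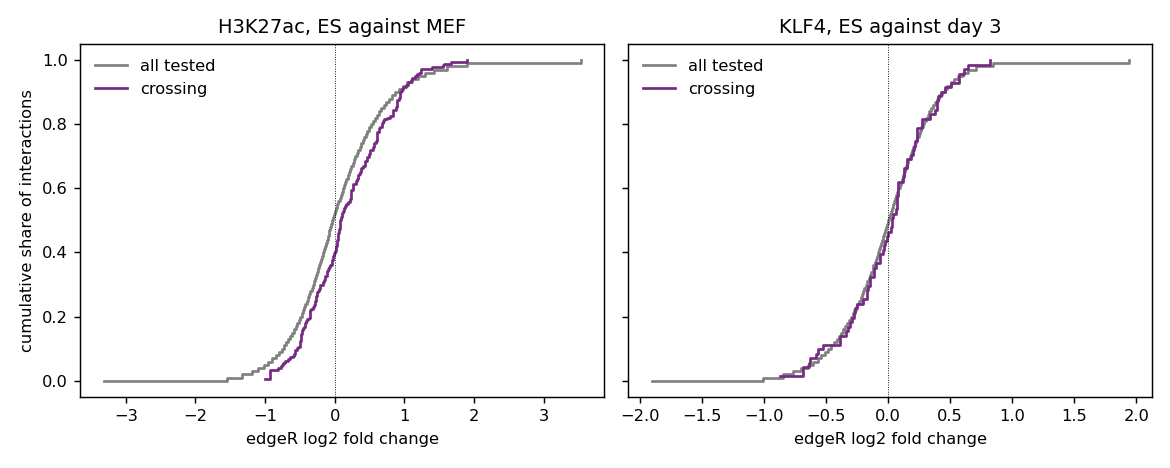
The x axes give the edgeR log2 fold change of ES against MEF (H3K27ac) or against day 3 (KLF4), and the y axes the cumulative share of interactions, for all tested and for those that cross a shared boundary. The crossing curve lies to the right of all tested for H3K27ac (medians 0.08 and -0.04) and along it for KLF4 (0.04 and 0.00).

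The largest H3K27ac rise in ES was at the Hspa8 promoter bin (chr9:40800001-40810000), whose gene encodes the constitutive heat shock chaperone Hsc70, across the boundary at chr9:40800000. Its interaction with the adjacent bin reached 38.4 and 39.2 CPM in ES, from 7.43 and 10.5 in MEF, an edgeR log2 fold change of 1.90 (adjusted p = 7.02e-15). A second interaction of Hspa8, with the bin of Gm16096, rose by 1.39. The others with the largest rise were the Usp48 bin at chr4:137640000 (1.67), the pair Dnajc21 and Brix1 with Rad1 at chr15:10480000 (1.56), and an interaction without annotated gene at chr1:133000000 (1.55). Dnajc21 and Brix1 both act in ribosome assembly. The rule for naming required every ES library to lie above every MEF library, so this held in each of the 5 by choice.

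The largest falls in ES were smaller. The bin with Extl2 and Slc30a7 fell by 1.00 across chr3:116000000, from 7.99 and 8.46 CPM in MEF to 6.05 and 5.13 in ES (edgeR adjusted p = 8.63e-05). Atp6v0e and Crebrf, a pair of genes for a proton pump subunit and a stress regulator, fell by 0.94 across chr17:26680000. Mafk with Psmg3 and the bin of Cpsf7 and Sdhaf2 each fell by 0.93. The CPM, which carry no TMM factors, fell by less than the fitted values.

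KLF4 strength at crossing interactions was compared between day 3 and ES in the same way. Of 71 tested, 0 were higher in ES and 3 lower by edgeR, and 14 had an unadjusted p under 0.05. Among all 7387 tested 3.02% were higher and 4.18% lower, or 7.2% in all, and 1498 had an unadjusted p under 0.05, so the crossing interactions were called no more often than the list as a whole. Of the 594 that ended within 40 kb, 17 were higher and 24 lower. That direction turned to 36 higher and 29 lower without ES libraries 1 and 2, to 35 and 29 with all libraries separate, and to 5 and 3 with anchors at least 50 kb apart. Of the 3, those lower in every ES library than in every day 3 library were an interaction of Hspa8 across chr9:40800000, which fell by 0.87 (edgeR adjusted p = 0.00719, with 10.3, 7.66 and 6.26 CPM at day 3 and 3.05 to 4.78 in ES), and that of Slc25a38 with Rpsa, a ribosomal protein gene, across chr9:120120000, which fell by 0.69 (adjusted p = 0.0234). The count of 3 rests on single libraries: it went to 0 without day 3 library 1 or 3, and to 0 with DESeq2. At the Hspa8 boundary H3K27ac was thus higher in ES and KLF4 at day 3, in interactions with different bins.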

How the data were processed

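Interactions of 10 kb bins from 25 libraries in 9 groups were analysed. Bowtie2 2.2.3 and mm10 are named in the submitters' processing notes. The contact caller and the TAD caller are not given in the sources used here. Per the file headers, the deposited lists give raw contact counts per library, CPM (for HiChIP scaled to the contacts of the chromosome, from the values), an observed over expected ratio, and p-values with an FDR. The Hi-C lists hold a normalised signal in place of CPM, scaled by the authors by constants of unstated origin. The deposited TAD lists give 1 score per domain, which was not used. From the values, the HiChIP lists hold p-values up to 0.1 and the Hi-C lists up to 0.01.

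Members and gene lists were chosen with earlier results of these data known. The boundaries came from Hi-C, so Hi-C values are a description only. Crossing was counted with the MEF position between the anchor bins. Named boundaries were the 5 most crossed by H3K27ac in MEF and in ES, the 5 with the largest difference each way, the 3 most crossed by KLF4 in each group and the 5 with most annotated genes. Named interactions were the 5 H3K27ac and 3 KLF4 calls with the largest change each way, in the same direction in every pair of libraries. An H3K27ac interaction that this rule names is not reported here. Interactions listed in both groups were tested with edgeR 4.0.16 (TMM factors, quasi-likelihood, Benjamini-Hochberg over all tested), with DESeq2 1.42.0 as an alternative, in R 4.3.3. The edgeR fit was first tested on simulated data. Other steps used Python 3.11.15, numpy 2.4.6, pandas 2.3.3, scipy 1.17.1 and matplotlib 3.10.9. ES KLF4 libraries 1 and 2, ES KLF4 libraries 3 and 4, and TKO 24 h libraries 1 and 3 agree within sampling noise (chi-square over interactions), and each pair was counted as 1 sample. The only 2 Hi-C libraries of each cell type also agree within sampling noise, as do those of day 6, and were kept, so their spread is counting noise. The labels do not say which libraries came from separate cultures, so p-values measure only the spread between these libraries, which may be technical. Alternatives were other scalings, distances, windows and filters, and leaving out each library.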

Additional observations from a re-analysis of the deposited data

Results flagged for a closer look

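At the shared boundaries whose ES position lay 20 or 40 kb away, the H3K27ac crossing ratio of ES exceeded that of MEF by 2.28 on the log2 scale, with every MEF library below the surroundings and every ES library above them. The opposite direction in the 2 cell types is what drew attention, and the difference in direction was not tested. The positions are those of MEF, and at the ES positions both cell types were below the surroundings. Among the 6 values in groups of 4 libraries that were checked, none had a library far from the others.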

How the results depend on the processing

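The crossing ratios kept their direction under each alternative run. ES minus MEF H3K27ac ranged from 0.80 (ES list at ES positions) to 2.36 (authors' FDR under 0.1), and was 1.22 to 1.23 without single libraries. ES minus day 3 KLF4 ranged from 0.23 (anchors at least 50 kb apart) to 0.85, was 0.41 with the ES list at ES positions and 0.71 to 0.77 without single libraries, and had no value at the FDR limit. The alternatives at ES positions and without chromosome 19 were chosen after seeing the data.

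Counts of calls depended on the settings more, and the cause was not tested. Calls over all tested interactions moved as well, so these changes are not particular to the boundaries. With DESeq2 the H3K27ac calls over all tested were 1533 higher and 863 lower, against 3152 and 2569 by edgeR. For KLF4 they were 14 and 50 with DESeq2 and 328 and 382 with all libraries separate, against 223 and 309. The 55 H3K27ac crossing calls became 15 with DESeq2, 3 with anchors at least 50 kb apart, 0 with both anchors outside 40 kb (1 tested by edgeR), and 29 to 51 without single libraries. The 433 calls ending near became 155, 73 with the 50 kb limit, and 233 to 376 without single libraries; the lowest values were without MEF library 2. The 3 KLF4 crossing calls by edgeR became 1 with contact totals, whole or per chromosome, 0 with DESeq2, with the 50 kb limit or with both anchors outside 40 kb, 6 with all libraries separate, and 0 to 2 without single libraries. The 41 KLF4 calls ending near became 22 and 20 with contact totals, whole and per chromosome, 3 with DESeq2, 8 with the 50 kb limit, 64 with all libraries separate, and 8 to 65 without single libraries (15 without day 3 library 1, 17 without day 3 library 2, 15 without ES libraries 3 and 4), lowest without day 3 library 3 and highest without ES libraries 1 and 2.

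Library numbers did not pair the samples, since deviations of same-numbered libraries correlated at 0.0296 in H3K27ac and from -0.0582 to 0.0226 in KLF4. With the replicate block the H3K27ac calls were 56 crossing and 441 ending near, the KLF4 calls 1 and 20, and the ratio differences 1.23 and 0.73.

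Annotated genes near a shared boundary were 7.99% of all when only identical positions were counted as shared and 6.35% within 20 kb. Crossing percentages are given in the order MEF H3K27ac, ES H3K27ac, day 3 KLF4, ES KLF4, MEF Hi-C and ES Hi-C. With both anchors outside 40 kb they were 0.00675%, 0.0853%, 0.0130%, 0.00830%, 0.00812% and 0.0144%. With anchors at least 50 kb apart they were 1.21%, 2.93%, 1.45%, 1.66%, 0.968% and 1.44%. At the authors' FDR under 0.1 they were 1.10%, 1.33%, 4.03%, 0%, 2.50% and 2.00%. The KLF4 values there rest on 5 of 124 interactions at day 3 and 0 of 49 in ES, and that of MEF H3K27ac on 12 of 1095. At this limit day 3 KLF4 and MEF Hi-C lay above ES, the reverse of the full lists. With identical positions only, the first 4 were 0.720%, 1.22%, 0.756% and 0.817%, and within 80 kb ES H3K27ac was 2.08%. Hi-C contact percentages without single libraries were 0.540% to 0.546% in MEF and 1.07% to 1.07% in ES. The H3K27ac fit with all libraries separate was not run, as none were joined.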
